A study of Mus musculus with 2116 samples.

Results

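The genes of MHC class I antigen presentation were followed in CD4+ T cells of the mouse spleen. They were H2-K1, H2-D1, H2-Q7, H2-T23, B2m, Tap1, Tap2, Tapbp and Nlrc5, taken by name as 9 of the 23725 genes in the count table. Their counts were compared between regulatory T cells (Treg, 816 cells) and conventional CD4+ T cells (Tconv, 1300 cells). All cells came from male mice of the strain B6 Foxp3-Ires-Gfp aged 8 months, which carry a green fluorescent protein (GFP) reporter at Foxp3, the gene of the transcription factor that defines Treg, and no treatment is named in the labels. Cells were captured with inDrops, a droplet method that tags each captured mRNA molecule with a unique molecular identifier (UMI), so that a count is a number of molecules. Each group was 1 library, the number of mice is not given in the labels, and no difference between groups had a replicate check. All intervals are 95% intervals that cover counting error only, and they are too narrow because UMIs of a gene are clumped in cells.

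Depth was 1468203 UMIs in Treg and 2002752 UMIs in Tconv, with medians of 1688.5 and 1510.5 UMIs per cell. Foxp3 was at 380.1 counts per 1000000 UMIs (CPM) in Treg and 2.996 CPM in Tconv, and Il2ra, the interleukin-2 receptor alpha chain, at 419.6 and 6.49 CPM, in the direction of the labels. Both populations are described in the sorting text as positive for GFP. All 9 T lineage genes checked were detected in both libraries, with 4527 CPM in Treg and 5039 CPM in Tconv. Cells with at least 3 UMIs of a list for another cell type made up 6.37% of Treg and 2.46% of Tconv cells. Of all UMIs, 25.8% in Treg and 32.3% in Tconv came from ribosomal protein genes. The libraries shared 12 cell barcodes.

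MHC class I molecules carry short peptides from inside the cell to its surface, where CD8+ T cells and natural killer cells read them. A heavy chain folds with beta-2-microglobulin in the endoplasmic reticulum. It receives a peptide there that the proteasome has cut in the cytosol, that the TAP transporter has brought across the membrane, and that tapasin helps to load. In mouse, H2-K1 and H2-D1 encode classical heavy chains, H2-Q7 encodes a Qa-2 chain and H2-T23 encodes Qa-1, a ligand of inhibitory receptors on natural killer cells. Interferons raise the transcription of most of these genes, and NLRC5 is the class I transactivator. T cells, like most nucleated cells, carry class I molecules themselves.

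Of the 9 genes, 7 lie on chromosome 17, where the mouse MHC is. On GRCm38 (mm10), H2-K1 is at chr17:33996017-34000347, H2-D1 at chr17:35262730-35267499, H2-Q7 at chr17:35439155-35443773 and H2-T23 at chr17:36029773-36032855. The genes for transport and loading are Tap1 at chr17:34187553-34197225, Tap2 at chr17:34203527-34216321 and Tapbp at chr17:33915899-33929292. B2m is at chr2:122147686-122153083 and Nlrc5 at chr8:94434356-94527272. All are protein coding genes.

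Promoter windows, from 250 bases before to 50 bases after the RefSeq start on GRCm38.p6, were read for 7 of the 9 genes. Tap2 and Nlrc5 were not matched. The stretches below are shown to compare the heavy chain genes with B2m: those of H2-K1, H2-D1 and H2-Q7 are nearly the same, while B2m and H2-T23 differ there. The part of promoter sequence in the Treg to Tconv ratios was not tested. Capitals mark GGGGATTCCC, a kappa-B motif, and TTTCNNTT, the core of an interferon response element, each searched on both strands. In B2m the capitals are the reverse complement of the core. Only these exact letters were searched. B2m and the other windows without GGGGATTCCC are therefore not shown to lack other forms of the kappa-B motif.
H2-K1, minus strand, chr17:34000415-34000473: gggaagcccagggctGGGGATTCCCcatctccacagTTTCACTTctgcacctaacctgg
H2-D1, plus strand, chr17:35262908-35262966: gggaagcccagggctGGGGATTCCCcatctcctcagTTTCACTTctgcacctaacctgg
H2-Q7, plus strand, chr17:35439007-35439064: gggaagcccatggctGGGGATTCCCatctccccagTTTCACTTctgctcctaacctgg
B2m, plus strand, chr2:122147535-122147572: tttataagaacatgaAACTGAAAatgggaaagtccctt
H2-T23, minus strand, chr17:36032760-36032840: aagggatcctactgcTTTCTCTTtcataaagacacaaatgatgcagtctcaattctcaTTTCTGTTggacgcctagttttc

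The kappa-B letters lay upstream of the RefSeq start in H2-K1, H2-D1 and H2-Q7, and were found in 28 of 27025 mouse promoter windows (0.104%). The interferon response core was present once in the windows of H2-K1, H2-D1, H2-Q7 and B2m and at 2 places in that of H2-T23, with no overlap with the kappa-B letters. It was found in 24.2% of all promoter windows, so a single match is common. The windows of Tap1 and Tapbp held neither the kappa-B letters nor the interferon response core. The Tapbp window, chr17:33919228-33919527, lies inside the gene span given above, because the RefSeq start is not the start of that span. Sequence before the start of the Tapbp span was not read. The stretches of H2-D1 and H2-T23 also lie inside their gene spans. The windows of H2-K1 and H2-D1 were identical at 89.5% of aligned bases, those of H2-K1 and H2-Q7 at 87.4%, and those of H2-D1 and H2-Q7 at 83.5%. TGACG, found in 21.02% of all windows, was present in those of H2-K1, H2-D1, H2-Q7, B2m and Tap1, and CCAAT, found in 37.9%, in all 7. The windows of Tap1 and Psmb9, an immunoproteasome subunit gene on the opposite strand, overlapped by 275 of 300 bases. A match describes these letters and is no evidence of binding, and the motifs were chosen after the sequences were seen.

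All 9 genes had a higher CPM in the Treg library than in the Tconv library, by 1.08-fold to 2.22-fold, although the sign of B2m turned on other scales. The 9 genes together made up 1.72% of UMIs in Treg and 1.27% in Tconv, which was 17169 and 12740 CPM, a ratio of 1.35 (1.32 to 1.37) or 0.43 on the log2 scale. The median log2 ratio of the 9 genes was 0.54, against 0.14 for all 8988 genes that had 20 or more UMIs over the libraries. H2-K1, H2-Q7 and Nlrc5 were past 1.5-fold, so 3 of 9, and H2-Q7 and Nlrc5 were also past 2-fold. Among all 8988 genes, 20.6% were past 1.5-fold higher and 9.16% past 1.5-fold lower (29.7% in either direction), and 8.61% were past 2-fold higher and 3.6% past 2-fold lower (12.2% in either direction). Among the 4738 genes with at least 100 UMIs, 14.5% were past 1.5-fold higher and 4.39% past 2-fold higher. With these shares, the count of 3 of 9 past 1.5-fold is no result of its own. The ribosomal share moves the scale: without ribosomal protein genes in the total, the median of all genes went to 0.01, and with TMM factors, which are scaling factors trimmed of extreme genes, to −0.02.

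The classical heavy chains H2-K1 and H2-D1 were both about 1.5-fold higher in Treg. H2-K1 had 6306 UMIs or 4295 CPM (4190 to 4402) in Treg and 5634 UMIs or 2813 CPM (2740 to 2888) in Tconv. Its log2 ratio was 0.61 (0.56 to 0.66), a 1.53-fold higher level in Treg. This fold is close to the 1.5-fold line, and H2-K1 was below the line on the other scales, with log2 ratios of 0.48 without ribosomal protein genes and 0.46 with TMM factors. H2-D1 had 4874 CPM (4762 to 4988) in Treg and 3275 CPM (3196 to 3355) in Tconv, with a log2 ratio of 0.57 (0.53 to 0.62) and a fold of 1.49, just below the line. The H2-K1 to H2-D1 ratio of UMIs was 0.881 (0.852 to 0.912) in Treg and 0.859 (0.829 to 0.890) in Tconv, intervals that overlap.

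The Qa chains differed from each other in size. H2-Q7 was at 777.8 CPM (733.4 to 824.3) in Treg and 351.02 CPM (325.5 to 377.95) in Tconv. It had the largest ratio of the 9 genes, with a log2 ratio of 1.15 (1.01 to 1.29). Against the classical chains, whose sum needs no library scale, H2-Q7 had 0.0848 (0.0798 to 0.0901) UMIs per H2-K1 and H2-D1 UMI in Treg and 0.0577 (0.0534 to 0.0622) in Tconv. H2-T23 had 538.1 CPM (501.2 to 576.9) in Treg and 400.9 CPM (373.7 to 429.7) in Tconv, with a log2 ratio of 0.42 (0.28 to 0.57). Per classical chain UMI, H2-T23 had 0.0587 (0.0546 to 0.0631) in Treg and 0.0659 (0.0612 to 0.0707) in Tconv, intervals that overlap.

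B2m, the partner of every heavy chain, differed least. It had 8087 UMIs, which is 5508 CPM (5389 to 5629) in Treg and 10214 UMIs or 5100 CPM (5002 to 5200) in Tconv. The log2 ratio was 0.11 (0.07 to 0.15), below the 0.14 of the median gene, and it changed sign, to −0.020 where ribosomal protein genes were left out of the scaling and to −0.044 with TMM factors. H2-K1 and H2-D1 together had 1.66 (1.62 to 1.71) UMIs per B2m UMI in Treg and 1.19 (1.16 to 1.23) in Tconv, a comparison within each library that no scaling changes. Without cells of other types the ratio was 1.68 in Treg and 1.20 in Tconv. In cells with fewer than 1000 UMIs it was 2.08 (1.79 to 2.43) in Treg and 1.12 (1.03 to 1.23) in Tconv.

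**Figure D1:**
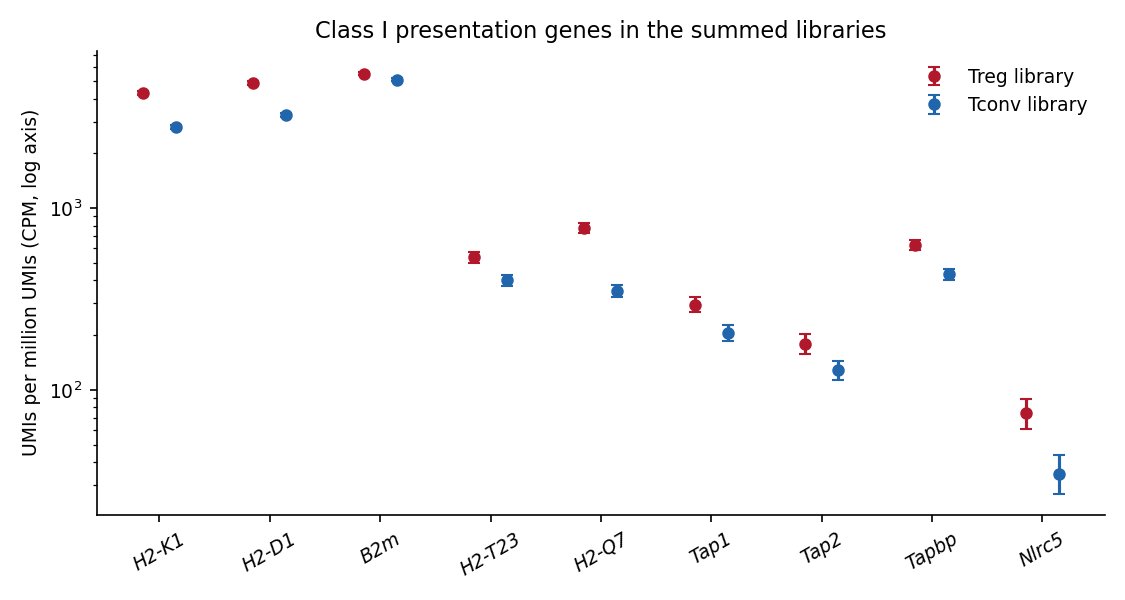
CPM of each gene in the summed Treg (red) and Tconv (blue) libraries on a log axis, with exact 95% Poisson intervals for counting error; each point is 1 library. Treg points lie above Tconv points for all 9 genes on this scale, least for B2m at 5508 and 5100 CPM, whose sign turns under other scalings, and most for H2-Q7 at 777.8 and 351.02 CPM.

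The genes for peptide transport and loading had similar ratios, all below 1.5-fold. Tap1, a subunit of the TAP transporter, had 294.2 CPM (267.1 to 323.3) in Treg and 205.2 CPM (185.9 to 226.1) in Tconv. Tap2, the other subunit, had 179.1 CPM (158.1 to 202.1) in Treg and 127.8 CPM (112.6 to 144.5) in Tconv. Their log2 ratios were 0.52 (0.32 to 0.72) for Tap1 and 0.49 (0.23 to 0.74) for Tap2. Tapbp, which encodes tapasin, had 628.7 CPM (588.8 to 670.6) in Treg and 432.4 CPM (404.1 to 462.2) in Tconv, a log2 ratio of 0.54 (0.40 to 0.68). The 3 genes were 1.40-fold to 1.45-fold higher in Treg, and their intervals overlap widely.

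Nlrc5, the transactivator gene, had the fewest UMIs of the 9. It had 74.2 CPM (60.96 to 89.6) in Treg and 34.5 CPM (26.8 to 43.6) in Tconv, where this was 69 UMIs. The intervals did not overlap, and the log2 ratio was 1.11 (0.66 to 1.56). The lower end of that interval is past 1.5-fold, and its upper end is past that of H2-Q7.

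Other genes of the pathway were taken as whole lists. Of the 6 immunoproteasome genes, Psmb9 alone was past 1.5-fold, with 111.7 CPM in Treg and 72.4 CPM in Tconv, and the median log2 ratio was 0.26. Psmb8, another catalytic subunit of the immunoproteasome, had a log2 ratio of 0.32 (0.17 to 0.48). Psme1 and Psme2, the subunits of the proteasome activator PA28, had ratios of −0.03 (−0.17 to 0.11) and −0.02 (−0.20 to 0.15), which lie below the median of all genes. Of 9 genes for peptide loading and trimming, 1 was past 1.5-fold, Hspa5, an endoplasmic reticulum chaperone, with 397.8 CPM in Treg and 245.7 CPM in Tconv. Calr, the chaperone calreticulin of the loading complex, had 604.8 CPM in Treg and 448.4 CPM in Tconv, and the median of this list was 0.28. Both shares are below the 20.6% of all genes past 1.5-fold higher.

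Of 18 other class I chains and class I-like genes, 8 had at least 20 UMIs and 5 of those were past 1.5-fold higher in Treg, with a median log2 ratio of 0.77 and 0 past 1.5-fold lower, against 20.6% and 9.16% of all genes. H2-Q10 had 227.5 CPM in Treg and 91.4 CPM in Tconv. H2-M3, a chain that presents formylated peptides, had 98.1 CPM in Treg and 48.9 CPM in Tconv. H2-Q4 had 226.8 and 138.8 CPM, and H2-T10, which was not past 1.5-fold, had 234.3 and 177.3 CPM. Of 12 measured regulators of class I genes, 3 were past 1.5-fold higher, a share near the 20.6% of all genes. Nfkb1, a subunit of NF-kappa-B, had the largest ratio of them, with 379.4 CPM in Treg and 222.2 CPM in Tconv. Irf1, a transcription factor that interferon induces, had 183.2 CPM in Treg and 132.3 CPM in Tconv, a log2 ratio of 0.47 (0.22 to 0.72).

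**Figure D2:**
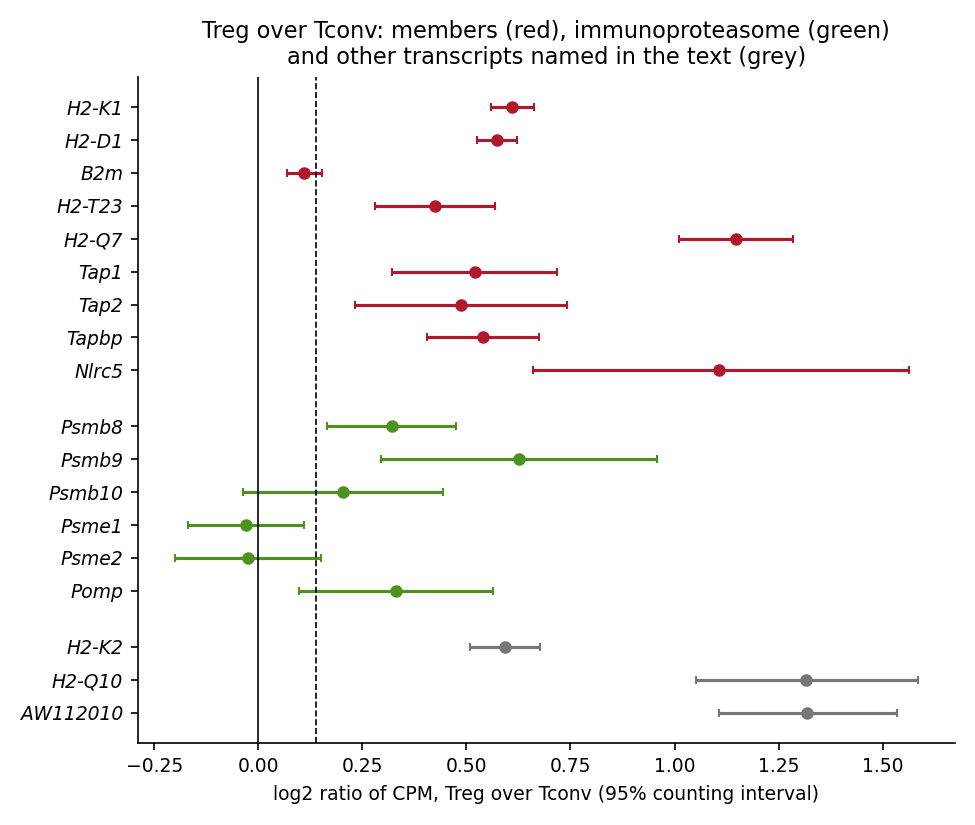
Log2 ratio of CPM, Treg over Tconv, with 95% counting intervals, for the 9 genes (red), the immunoproteasome list (green) and 3 other transcripts (grey); the dashed line is the median of all genes at 0.14. H2-Q7 at 1.15 and Nlrc5 at 1.11 lie farthest right among the 9, and B2m at 0.11 lies left of the dashed line, with Psme1 and Psme2 near 0.

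The heavy chain genes resemble each other in sequence, which bears on how far their counts can be separated. Runs of 40 bases in the last 400 bases of the transcript were shared with another class I gene for 3.32% of positions in H2-K1, 3.88% in H2-D1, 3.32% in H2-Q7 and 11.4% in H2-T23. The share with any other gene in the last 400 bases was 20.2% for H2-D1 and 50.1% for H2-T23. In the next 400 bases upstream the shares were 29.9%, 7.76%, 68.98% and 47.9% for the same genes. B2m, Tap1, Tap2, Tapbp and Nlrc5 shared none with class I genes in either stretch, but Tapbp shared 18.8% with genes that are not class I in the upstream one. How reads that fit several genes were counted is not given in the sources used here, so the separate values of H2-K1, H2-D1, H2-Q7 and H2-T23 are uncertain. H2-K2, an annotated pseudogene beside them, was counted with 2391 UMIs in Treg and 2162 in Tconv and a log2 ratio of 0.59, close to those of H2-K1 and H2-D1. The 5 genes without runs shared with class I genes, summed, had a log2 ratio of 0.18, most of their UMIs being B2m, and Tap1, Tap2, Tapbp and Nlrc5 alone had 0.56.

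Cells were compared at equal depth by drawing 1000 UMIs from each cell, which left 738 Treg cells and most Tconv cells. The sum of the 9 genes ranged over 1 to 46 UMIs in both, with medians of 17 in Treg and 12 in Tconv. The distributions overlapped: 72.6% of Treg cells were above the Tconv median, and 17.8% of Tconv cells were above the Treg median. H2-D1 was detected in 97.7% of Treg and 93.3% of Tconv cells, H2-K1 in 94.2% and 88.6%, and B2m in 95.1% and 96.2%. Before thinning these shares were 98.8% of Treg and 96.8% of Tconv cells for H2-D1, 96.1% and 93.6% for H2-K1, and 95.2% and 97.2% for B2m.

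H2-Q7 was found in 44.7% (41.1 to 48.4) of Treg and 24.9% (22.4 to 27.6) of Tconv cells, and in 58.9% of Treg and 35.1% of Tconv cells before thinning. H2-T23 was found in 39.8% (36.3 to 43.5) of Treg and 32.6% (29.8 to 35.4) of Tconv cells. Of the transport and loading genes, Tap1 was found in 18.97% of Treg and 16.2% of Tconv cells, Tap2 in 14.4% and 10.7%, and Tapbp in 34.4% and 27.8%. Nlrc5 was found in 6.504% (4.83 to 8.53) of Treg and 3.52% (2.51 to 4.78) of Tconv cells. A cell without a UMI of these sparse genes is not shown to lack the transcript. No cell type known to lack class I transcripts was present in enough cells to give a background, and the part of free RNA in these shares was not tested.

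**Figure D3:**
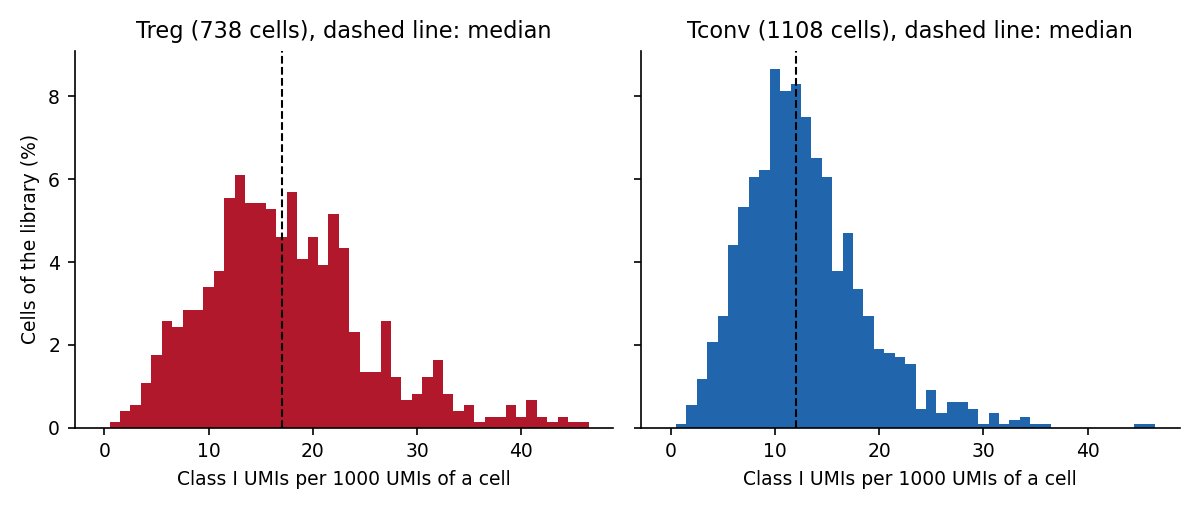
Share of cells in percent by the number of UMIs of the 9 genes among 1000 UMIs drawn from the cell, in 738 Treg cells (left) and in the Tconv cells of at least 1000 UMIs (right); dashed lines mark the medians. The Treg cells centre on 17 and the Tconv cells on 12 UMIs, and both spread over 1 to 46.

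The difference between the libraries was present at every depth. In cells with fewer than 1000 UMIs the sum was 18417 CPM in Treg and 14486 CPM in Tconv. It was 18113 and 13045 CPM in cells of 1000 to 2000 UMIs, and 16039 and 11412 CPM in deeper cells. The log2 ratios were 0.35, 0.47 and 0.49 from the shallowest to the deepest cells. Without cells of other types the sum had a log2 ratio of 0.46, as large as with them.

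Relative to the mean, the standard deviation of the sum between cells was 0.458 in Treg and 0.454 in Tconv. The Fano factor, which is the variance over the mean and is 1 for independent counts, was 3.68 for the sum in Treg and 2.65 in Tconv. It was 2.28 in Treg and 1.68 in Tconv for H2-K1, 2.14 and 1.54 for H2-D1, 2.81 and 2.41 for B2m, and 1.88 and 1.42 for H2-Q7. The median over genes with a mean of at least 1 UMI was 1.57 in Treg and 1.28 in Tconv, so the higher value in Treg was not limited to class I genes. H2-T23 was close to independent counts, at 1.13 in Treg and 1.01 in Tconv. Mapped reads per UMI were 31.9 in Treg and 19.1 in Tconv, and the part of this in the spread between cells was not tested.

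Pearson correlations across the thinned cells are given as descriptions of 1 library each, since cells share depth and composition and sums of UMIs were fixed at 1000. H2-K1 and H2-D1 had r = 0.51 in Treg and 0.49 in Tconv. H2-K2 had r = 0.52 and 0.50 with H2-K1, and 0.50 and 0.51 with H2-D1. H2-Q7 had r = 0.23 with H2-K1 in Treg and 0.09 in Tconv, and r = 0.40 and 0.23 with H2-Q10. B2m, which forms the complex with these chains, had r of only 0.16 and 0.09 with H2-K1 and 0.09 and 0.11 with H2-D1. The 33 pairs other than those among H2-K1, H2-D1 and H2-Q7 ran between −0.05 and 0.16 in Treg with a median of 0.04, and between −0.06 and 0.13 in Tconv with a median of 0.01.

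H2-T23 shared 20.2% of its runs with H2-K1 and 31.6% with H2-D1 in the 400 bases before its last 400, and its r in Treg was −0.01 with H2-K1 and 0.04 with H2-D1. H2-K1 shared 0% of its runs with H2-K2 in its last 400 bases and 2.22% in the 400 before them, and their r in Treg was 0.52. In those upstream 400 bases H2-K1 shared 21.1% of its runs with H2-D1, and their r in Treg was 0.51. H2-K2 shared 22.7% of its upstream runs with H2-D1 and 9.14% with H2-K1, and its r with H2-D1 in Treg was 0.50. The part of shared runs in these correlations was not tested. Tgtp1 and Tgtp2 are a pair of interferon-induced GTPase genes whose last 400 bases shared 100% of their 40-base runs. They had r = 0.62 in Treg and 0.72 in Tconv, and of the cells with either, 63.4% in Treg and 66.4% in Tconv held equal counts of both. Among cells with H2-K1 or H2-D1, 9.90% in Treg and 17.1% in Tconv held equal counts, against 5.58% and 7.76% for H2-K1 and B2m. The part of shared sequence in the correlation of H2-K1 with H2-D1 and H2-K2 was not tested.

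**Figure D4:**
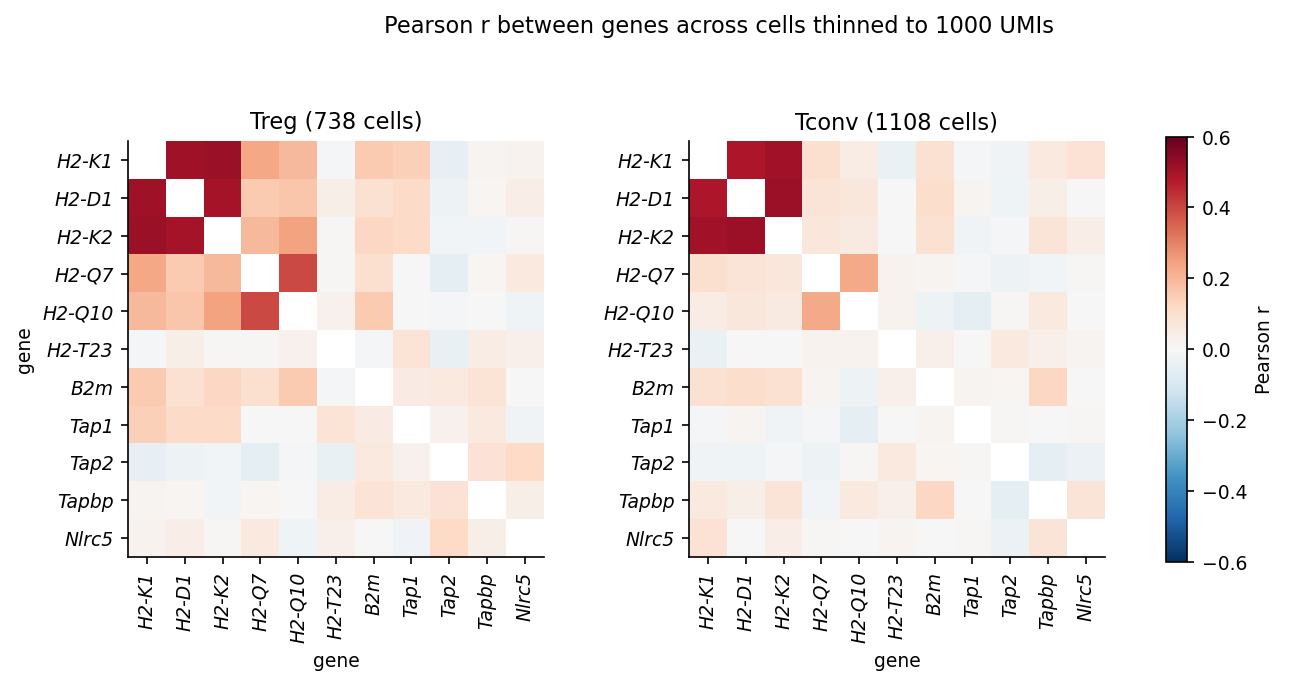
Pearson r between genes across Treg cells (left) and Tconv cells (right) thinned to 1000 UMIs, with the diagonal left blank. H2-K1, H2-D1 and H2-K2 form a block at 0.49 to 0.52, H2-Q7 and H2-Q10 stand at 0.40 in Treg and 0.23 in Tconv, and most other squares are near 0.

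By Pearson r with the summed UMIs of the 9 genes, the genes most alike in pattern over 738 Treg cells were H2-K2 (0.51), H2-Q10 (0.28), AW112010 (0.21), Ifi27l2a (0.19) and Ly6e (0.17), of 3258 genes compared. Over the Tconv cells they were H2-K2 (0.46), Ly6a (0.20), AW112010 (0.14), H2-T10 (0.13) and Gbp6 (0.13), of 2873. The median gene had r = 0.00 in both. AW112010, a long noncoding RNA gene, had 350.1 CPM in Treg and 140.3 CPM in Tconv. The interferon-induced gene Ifi27l2a had 706.3 and 312.6 CPM, and Ly6e had 1265 and 586.2 CPM. Ly6a, the gene of the surface protein Sca-1, had 550.3 CPM in Treg and 525.8 CPM in Tconv and a log2 ratio near 0, at 0.07 (−0.07 to 0.20). At the other end, Rplp1, a ribosomal protein gene, had the lowest r in both, −0.16 in Treg and −0.15 in Tconv.

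Interferon-induced genes were set beside class I in the same cells. The interferon list summed to 4866 CPM in Treg and 3637 CPM in Tconv, a ratio of 1.34 (1.29 to 1.38). Of its 51 measured genes, 19 were past 1.5-fold higher in Treg and 2 past 1.5-fold lower, against 20.6% and 9.16% of all genes, with a median log2 ratio of 0.42. Within it, 8 of 14 GTPase genes were past 1.5-fold higher, with a median of 0.61. The list and its GTPase part hold both Tgtp1 and Tgtp2, the pair described above with shared runs and often equal counts. How reads that fit both genes were counted is not given, so a single molecule may be counted for both. The part of this pair in the list sum and in the classes of interferon UMIs below was not tested. The guanylate-binding protein genes Gbp5 and Gbp3 were sparse, with 59 UMIs of Gbp5 in Treg against 19 in Tconv and 54 UMIs of Gbp3 against 12. Ifi47, the GTPase gene with the most UMIs, had 457.02 CPM in Treg and 360.5 CPM in Tconv. Socs1, the interferon-induced inhibitor of JAK kinases, had 160.1 CPM in Treg and 42.4 CPM in Tconv. Of 16 measured genes typical of type I interferon, 3 were past 1.5-fold higher and 2 lower, with Ifit2 at 34 UMIs in Treg and 78 in Tconv and Isg20 at 100 and 56.

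Within each library, cells with more interferon-induced UMIs had slightly more class I UMIs. A molecule counted for both Tgtp1 and Tgtp2 would by itself reach the limit of 2 interferon UMIs used here, and its part in the split was not tested. In Treg, the 581 cells with at least 2 interferon UMIs had 17.9 class I UMIs per 1000 and the 55 cells with 0 had 15.8, a log2 ratio of 0.18 (0.08 to 0.28). In Tconv, the 777 cells with at least 2 had 13.2 and the 13.2% of cells with 0 had 11.6, a log2 ratio of 0.19 (0.11 to 0.26). The median gene had a log2 ratio of 0.11 in Treg and 0.05 in Tconv in the same comparison. The size depended on the random draw: with another draw it was 0.08 (−0.01 to 0.18) in Treg and 0.25 (0.17 to 0.33) in Tconv, and with 500 UMIs per cell it was 0.09 in Treg and 0.02 in Tconv.

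From 0 through 1, 2, 3 to 4 and at least 5 interferon UMIs, the Treg means were 15.8, 16.7, 16.6, 16.8 and 18.9 class I UMIs. In Tconv they were 11.6, 12.5, 12.6, 12.96 and 13.8. The interval of the top Treg class was 18.4 to 19.4 and that of the class at 0 was 14.7 to 16.9, and in Tconv they were 13.4 to 14.2 and 11.1 to 12.2. The intervals of the Treg classes below the top one overlapped one another. Cells at 0 and at 5 or more had medians of 1683 and 1741 UMIs in Treg and 1592.5 and 1587 in Tconv before thinning, and the T lineage list had 4.78 and 4.99 UMIs per 1000 in Treg and 5.27 and 5.20 in Tconv. Pearson r between class I and interferon UMIs was 0.14 over Treg and 0.18 over Tconv cells, too weak in sparse counts to be read as a finding.

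The genes differed in this respect. B2m had 5.76 UMIs per 1000 in interferon-positive and 4.58 in interferon-negative Treg cells, a log2 ratio of 0.33 (0.15 to 0.52), and 5.23 and 4.603 in Tconv cells, a ratio of 0.18 (0.07 to 0.30). H2-K1 had 4.40 in positive and 4.44 in negative Treg cells, a log2 ratio of −0.01 (−0.20 to 0.18), and 2.93 and 2.61 in Tconv cells, a ratio of 0.17 (0.01 to 0.33). H2-D1 had log2 ratios of 0.11 (−0.07 to 0.30) in Treg and 0.09 (−0.05 to 0.23) in Tconv. The interval of H2-K1 in Treg holds 0, so with these 55 negative cells no difference was detectable.

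The sparser genes had wide intervals. Tap1 had 0.317 UMIs per 1000 in positive and 0.2 in negative Treg cells, and 0.218 and 0.116 in Tconv cells, with log2 ratios of 0.66 (−0.21 to 1.69) in Treg and 0.90 (0.18 to 1.71) in Tconv. H2-Q7 had 0.20 (−0.27 to 0.71) in Treg and 0.53 (0.019 to 1.082) in Tconv, and H2-T23 had 0.10 (−0.45 to 0.72) in Treg and 0.58 (0.11 to 1.07) in Tconv. Tap2 rested on 5 UMIs in negative Treg cells, and Nlrc5 on 2 in negative Tconv cells, so their ratios were not read. In this split 41.3% of all genes in Treg were past 1.25-fold higher and 29.9% past 1.25-fold lower, and 33.2% and 25.2% in Tconv, so a ratio of this size in 1 sparse gene is common.

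Summed H2-K1 and H2-D1 per B2m UMI was 2 in Treg cells at 0 interferon UMIs and 1.52 in those at 5 or more, with 1.83, 1.95 and 1.77 between. In Tconv the same ratio was 1.27 at 0 and 1.19 at 5 or more. The immunoproteasome list had 1.79 UMIs per 1000 in positive and 1.15 in negative Treg cells, a log2 ratio of 0.64 (0.28 to 1.03), and 1.64 and 1.48 in Tconv cells, a ratio of 0.15 (−0.06 to 0.37). The list for loading and trimming had 2.07 in positive and 2.49 in negative Treg cells and 1.67 and 1.63 in Tconv cells.

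**Figure D5:**
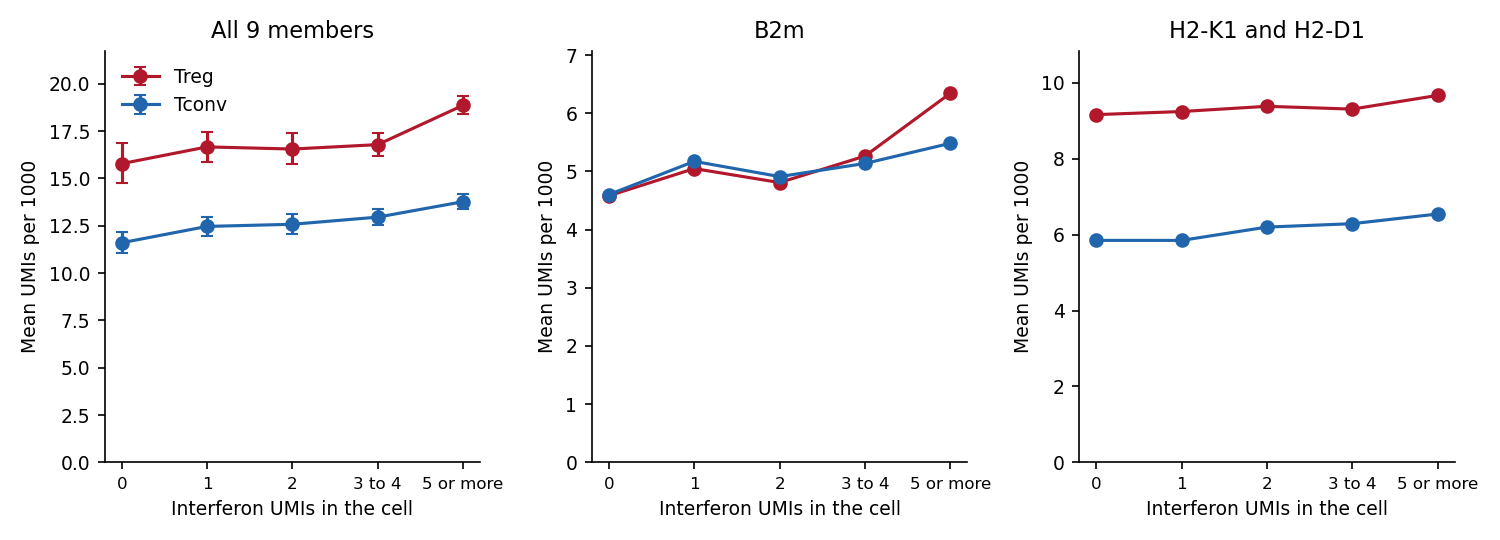
Mean UMIs per 1000 of all 9 genes (left, with 95% counting intervals), of B2m (middle) and of H2-K1 and H2-D1 together (right) in Treg (red) and Tconv (blue) cells, by the number of interferon UMIs among 1000 drawn from the cell. Treg lies above Tconv throughout for the 9 genes, from 15.8 and 11.6 at 0 to 18.9 and 13.8 at 5 or more, while the B2m points nearly coincide up to 4 interferon UMIs.

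The Treg to Tconv difference in class I was of like size within classes of interferon UMIs. The classes with at least 2 and at least 5 are open, so counts within them were not shown to be equal. Over all thinned cells the interferon list averaged 4.95 UMIs per cell in Treg and 3.72 in Tconv. A cell with 0 among the drawn UMIs is not shown to lack these transcripts. The part of interferon in the library difference was not tested. The log2 ratio of the sum was 0.44 (0.32 to 0.56) in cells with 0 interferon UMIs, 0.42 (0.33 to 0.51) with 1, 0.43 (0.39 to 0.47) with at least 2 and 0.45 (0.40 to 0.51) with at least 5. In cells with 0, H2-K1 had a log2 ratio of 0.77 (0.53 to 1.001), H2-Q7 of 1.56 (0.87 to 2.27) and B2m of −0.01 (−0.22 to 0.20). In cells with at least 5, H2-K1 had 0.56 (0.44 to 0.68), H2-Q7 had 1.42 (1.096 to 1.75) and B2m had 0.21 (0.12 to 0.30).

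Parts of the interferon list gave like values. Cells with at least 2 UMIs of GTPase genes had 18.6 class I UMIs per 1000 in Treg, against 16.8 in Treg cells with 0, and in Tconv they had 13.6, against 12.1. For genes typical of type I interferon the values were 19.1 against 17.2 in Treg and 14.2 against 12.7 in Tconv. Single genes also split the cells: the 90 Treg cells with a UMI of Gbp7 had 20.2 class I UMIs and the other Treg cells 17.2, and the 64 Tconv cells with a UMI of Gbp6 had 15.9 and the others 12.7. Of 31 interferon genes found in enough Treg cells, 9 marked cells with over 1.1-fold more class I UMIs, against 8.87% of all genes, and in Tconv 9 of 32 did, against 6.93%. Gbp7 and Gbp6 were chosen after their values were seen, as the GTPase genes with the largest split in each library.

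Class I UMIs were also set beside T cell state as read from other fixed lists. Their Pearson r was 0.12 in both libraries with effector or memory genes and −0.07 in both with resting genes. With T cell receptor response genes it was 0.03 in Treg and −0.05 in Tconv. These r are weak, as are those with interferon UMIs, and state was not ranked against interferon. The r with the whole interferon list was 0.14 in Treg and 0.18 in Tconv. With its GTPase genes r was 0.12 and 0.13, and with its type I genes 0.10 and 0.16. The classes below were not rerun with another draw or depth. In cells with 0, with 1 to 2 and with at least 3 UMIs of effector or memory genes, the means were 15.98, 16.7 and 18.7 class I UMIs in Treg and 12.5, 12.6 and 13.9 in Tconv. Along these classes the share of cells with UMIs of another cell type was 9.30%, 6.54% and 4.30% in Treg and 1.20%, 2.76% and 3.76% in Tconv, and its part in these means was not tested. For resting T cell genes they went the other way, at 20.6, 17.4 and 16.6 in Treg and 15.6, 13.9 and 12.6 in Tconv. Only 23 Tconv cells had 0 resting UMIs and 21.7% of those carried UMIs of another cell type, so that value is weak. In Treg the share of such cells was 4.80% at 0 and 7.08% at 3 or more resting UMIs. For genes of the T cell receptor response the means were 17.1, 18.1 and 18.1 in Treg and 12.96, 12.98 and 11.7 in Tconv.

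The genes within Treg followed the resting classes in different degrees. H2-D1 had 6.10 UMIs per 1000 in Treg cells with 0 resting UMIs and 4.76 in those with at least 3, H2-K1 had 5.01 and 4.13, B2m had 6.54 and 5.26, and H2-Q7 had 1.07 and 0.695. H2-T23 had 0.544 and 0.564 and Tapbp 0.512 and 0.640, so these were not higher in the cells with 0. The libraries themselves differed in state: the effector or memory list was 4119 CPM in Treg and 1885 CPM in Tconv, with 12 of 17 genes past 1.5-fold higher, and the resting list 3143 and 5424 CPM, with 7 of 13 past 1.5-fold lower, against 20.6% of all genes higher and 9.16% lower. Treg cells had more class I UMIs than Tconv cells in each of the classes of the effector or memory list. The class with at least 3 UMIs is open, so counts within it were not shown to be alike. Over all thinned cells this list averaged 3.83 UMIs per cell in Treg and 1.81 in Tconv. The part of T cell state in the library difference was not tested.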

How the data were processed

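Spleens were dissociated, and live TCR beta positive CD4+ cells were sorted and captured with inDrops, per the labels' protocols. The deposited table holds raw UMI counts per gene and cell, and no column was left out. TopHat2, SAMtools and mm10 are named, without versions or roles, in the submitters' processing notes; no source used here gives the annotation, the UMI counter or a cell filter. Table UMIs were 98.4% (Treg) and 98.1% (Tconv) of those in the labels.

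Cells were grouped by title code, read with the series title. Cells are not replicates and each group was 1 library, so no test was run and no p-value was computed. Counts were summed per library and scaled to CPM. Sums have exact Poisson, ratios exact conditional and shares Clopper-Pearson intervals at 95%. Genes with 20 or more UMIs over the libraries counted as measured, and a call means past 1.5-fold. Per-cell values used 1000 UMIs drawn without replacement, leaving out 78 Treg and 192 Tconv shallower cells and keeping 738 and 1108. No cells were clustered and no doublets removed. Python 3.11.15, numpy 2.4.6, scipy 1.17.1, pandas 2.3.3 and edgeR 4.0.16 (TMM factors only) were used, and the computation was tested on simulated data. Named genes were the 9 genes, up to 4 per list with the most UMIs, list genes past 2-fold with an interval away from 0, and the 5 most correlated genes per library; Psmb9, Ifit2, Gbp6, Gbp7 and the gene with the lowest r were added after their values were seen. Promoter sequences are from RefSeq on GRCm38.p6, and gene positions and transcripts from GENCODE on GRCm38, matched by symbol. The genes and lists were chosen with earlier results of these data known. Lists for B cell, myeloid, plasmacytoid dendritic, CD8 or NK, erythroid, plasma cell and platelet genes marked cells of other types. Alternatives covered scaling, cell weight, depth, filters, cells of other types, the interferon list and the random draw.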

Additional observations from a re-analysis of the deposited data

How the results depend on the processing

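The sum of the 9 genes kept its sign under every alternative run. Its log2 ratio was 0.30 with ribosomal protein genes left out of the scaling, 0.28 with TMM factors, 0.46 without cells of other types and 0.46 with the deepest cells (over 2 times the median) left out. With 5 genes without runs shared with class I genes (B2m, Tap1, Tap2, Tapbp and Nlrc5) it was 0.18, and without B2m among these 0.56. The median over the genes was 0.38 with TMM factors. The log2 ratio of B2m turned negative without ribosomal protein genes (−0.020) and with TMM factors (−0.044). The count of genes past 1.5-fold stayed between 2 and 4 of 9 with all 9 counted. For cells with against without interferon UMIs, the Treg log2 ratio was 0.30 at 1500 UMIs per cell (19 cells without), 0.37 with these 5 genes, and 1.13 with a broader interferon list, which left 1 cell without. The Tconv ratio was 0.025 at 500 UMIs and 0.42 with the broader list, which left 3 cells without. The interferon relation is therefore small and depends on depth, list and draw. Alternatives with genes left out and with shared barcodes removed were chosen after seeing the data. Leaving out a replicate was not possible with 1 library per group. No paired analysis was possible because each group is 1 library and the numbers in the titles only count cells.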

Other observations

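The receptors and kinases that carry interferon signals were measured in the same libraries. Ifngr1, a chain of the interferon gamma receptor, had 154.6 CPM in Treg and 81.9 CPM in Tconv, a log2 ratio of 0.92 (0.62 to 1.22). Ifnar1, a chain of the type I interferon receptor, had 143.7 CPM in Treg and 95.4 CPM in Tconv, a log2 ratio of 0.59 (0.30 to 0.88). Jak1, the kinase that both receptors use, had 685.2 CPM in Treg and 766.9 CPM in Tconv, a log2 ratio of −0.16 (−0.28 to −0.05). Of the 7 genes of this list, 3 were past 1.5-fold higher in Treg and 0 lower, against 20.6% and 9.16% of all genes, and the median log2 ratio was 0.34.

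Genes of other cell types in the table were the B cell list at 749.9 CPM in Treg and 217.2 CPM in Tconv, with Cd74 the most abundant and Pax5 at 0 in both, and the myeloid list at 402.5 CPM in Treg and 218.2 CPM in Tconv, led by Lyz1. The plasmacytoid dendritic list was 141.7 CPM in Treg and 51.9 CPM in Tconv, the CD8 or NK list 75.6 and 67.9 CPM, the erythroid list 155.3 and 11.5 CPM, the plasma cell list 105.6 and 238.7 CPM, and the platelet list 10.9 and 1.997 CPM. In the plasma cell list, Jchain led in Tconv and was at 0 in Treg.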
